A study of Arabidopsis thaliana with 12 samples.

Results

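The 100 brightest probes of a light-response array experiment in Arabidopsis thaliana were examined. The 3439 probes of the deposited table were ranked by intensity on each of the 12 arrays, and the 100 probes were chosen by the highest mean rank of the deposited intensities, ties going to the lower probe number. The blue-light plants were wild type, ecotype Landsberg, and ended with 48 h under blue light of 200 µE (6 arrays). They were set against wild-type Landsberg plants given 48 h of white light at 20 µE (6 arrays). Colour and fluence therefore changed together, and every difference below is their joint difference. Each array is 1 sample of total RNA. The sources used here do not give the organ, the age of the plants or whether the arrays of a group came from separate plants, so p-values measure only the spread between these arrays, which may be technical.

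The brightness of a spot depends on its probe as well as on the amount of transcript, so the 100 probes are called the brightest probes here and not the most abundant transcripts. The platform annotation lists 1 gene for 21 of them, several genes for 16 and none for 63. Of all 3439 probes it lists 1 gene for 692 (20.1%), several for 870 and none for 1877. Probes with several genes or none are given by number. In bulk RNA, fewer cells that make a transcript and less transcript per cell cannot be told apart.

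As background, plant cells perceive blue light through cryptochromes and phototropins, and red and far-red light through phytochromes. Green tissue devotes much of its messenger RNA to photosynthesis. Nuclear genes encode the chlorophyll-binding antenna proteins, many small subunits of the photosystems and the enzymes that make chlorophyll, and their products are imported into the chloroplast. Plants acclimate to stronger light by adjusting the size of this antenna and the capacity for electron transport.

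Before the results, some arrays stood apart. The blue-light arrays had summed intensities of 2800 to 3337. Among the white-light arrays, numbers 1 to 4 had 1988 to 2917, and numbers 5 and 6 had 1044 each. Arrays 1 and 2, 3 and 4, and 5 and 6 of each group resembled one another and are called sets. Tests ran over single arrays and, as a second version, over 6 set means (3 per group). The 100 probes were above 0 on every array. For 96 of them the rank, as a fraction of all probes with 1 for the brightest, stayed above 0.9 on all 12 arrays, and the lowest rank of any of them on any array was 0.841.

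The limit of the choice was narrow. The last 3 probes inside it, 2325, 343 and 4191, had mean ranks of 0.96045, 0.96038 and 0.96036. The first 3 outside it, 4385, 1724 and 2636, had 0.96033, 0.96021 and 0.95999. Membership near the 100th place thus rests on differences far smaller than the spread between arrays.

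The 100 probes held about the same part of the signal under both lights. Their share of the summed deposited intensity was 51.9% ± 1.59 (SD, n = 6) under blue light and 52.3% ± 1.33 (SD, n = 6) under white light. The lowest, median and highest shares were 49.7%, 52.6% and 53.3% on the blue-light arrays, and 50.9%, 52.1% and 54.0% on the white-light arrays, so the groups overlapped. The difference, blue minus white, was -0.44 percentage points, less than the SD of 1.17 between the 6 differences of arrays with the same number. The 10 brightest of the 100 alone held 24.3% ± 1.80 (SD, n = 6) under blue light and 23.8% ± 2.95 (SD, n = 6) under white light. The next 100 probes held 9.80% ± 0.318 (SD, n = 6) under blue light and 9.09% ± 0.558 (SD, n = 6) under white light. These shares come from the values that chose the probes and were not tested.

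**Figure D1:**
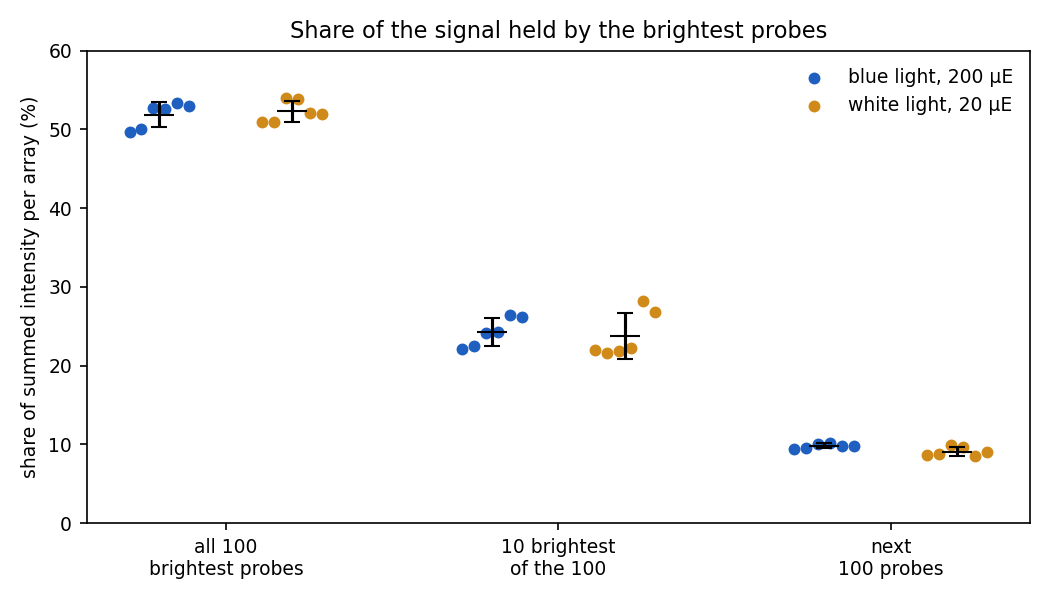
Share of each array's summed intensity (%, vertical axis) held by the 100 brightest probes, by the 10 brightest of them and by the next 100 probes; points are arrays 1 to 6 from left to right, and black marks are means with SD (n = 6). The shares of the 100 probes lie between 49.7% and 53.3% under blue light and between 50.9% and 54.0% under white light.

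Within this steady total the signal was divided differently. The 28 probes that passed the test described below as higher under blue light made up 26.4% ± 0.995 (SD, n = 6) of an array's summed intensity under blue light and 10.3% ± 0.887 (SD, n = 6) under white light. The 27 that passed as lower held 7.06% ± 0.408 (SD, n = 6) under blue light and 19.5% ± 1.06 (SD, n = 6) under white light. The remaining 45 held 18.4% ± 0.394 (SD, n = 6) under blue light and 22.5% ± 1.86 (SD, n = 6) under white light. The first 2 of these pairs of shares differ by choice, because the probes were sorted by their difference, and they show only how much signal the probes carried. The third pair is what that sort left of the steady total, so it is not free of the choice either. Among the 45, probe 3499 alone held 3.10% under blue light and 5.61% under white light.

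The signal was spread over slightly more probes under blue light when arrays with the same number were compared. The number of probes needed to reach 50% of an array's summed intensity was 69 to 88 on the blue-light arrays and 63 to 81 on the white-light arrays. These ranges overlapped. The number was higher under blue light in each of the 6 pairs of arrays with the same number, by 5 to 8 probes. The labels state no such pairing, and arrays of a set resembled one another, so the 6 pairs are not separate comparisons. The difference was not tested.

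At the top of the order stood probe 3499, for which no gene is listed. Its intensity had a lowest value of 87.6, a median of 96.9 and a highest of 100 on the blue-light arrays, and 72.8, 100 and 100 on the white-light arrays. The groups overlapped, and the log2 fold change of probe 3499, blue minus white, was -0.18 ± 0.17 (SE; limma adjusted p = 0.406). Its share of the summed intensity was 3.10% ± 0.195 (SD, n = 6) under blue light and 5.61% ± 3.08 (SD, n = 6) under white light, where arrays 5 and 6 had low sums while this spot was at 100.

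Probe 811, also without a listed gene, was at 100 on all 6 blue-light arrays, against 9.24, 48.9 and 77.5 (lowest, median and highest) on the white-light arrays. The fitted difference was 1.85-fold, with normalized log2 means of 6.53 and 5.64 in blue and white light (limma adjusted p = 0.0191), and without normalization between arrays it was 1.65 on the log2 scale. The sources used here do not say whether 100 is an upper limit of the scale. If it is, the fold changes and spreads of probes with values at 100 do not measure their full size. The call of probe 811 was lost over set means (limma adjusted p = 0.161) and without arrays 1 and 2 of both groups (limma adjusted p = 0.0546). Fitting the sets as a random effect also ended it (limma adjusted p = 0.0881). Spots at 100 also occurred for probe 1803, on 2 white-light arrays, for probe 3499, on 2 blue-light and 4 white-light arrays, and for probe 2125, on 1 blue-light array.

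The other probes of the first 10 places went both ways. Probe 1803, with several genes listed, had intensities of 45.8, 65.2 and 74.9 under blue light and 20.0, 82.8 and 100 under white light. After normalization it was lower on every blue-light array, with a log2 fold change of -1.02 ± 0.20 (SE; limma adjusted p = 0.00143, and 0.0682 over set means). That direction depended on the scaling, and was 0.01 without normalization between arrays. With median centring it was -0.54 and did not pass (limma adjusted p = 0.0942). White-light arrays 3 and 4, at 100 for this probe, enter the value. Probe 2869 had intensities of 78.0, 86.3 and 94.0 under blue light and 12, 24.6 and 26.4 under white light, and rose by 1.19 ± 0.25 on the log2 scale (SE; limma adjusted p = 0.00213, and 0.0711 over set means). Probes 2125 and 621 also passed over the 12 arrays, with log2 fold changes of 1.41 and 0.90. Over set means their limma adjusted p-values were 0.105 and 0.172. Leaving out arrays 1 and 2, or 3 and 4, of both groups ended the call of probe 621 (limma adjusted p = 0.151 and 0.178). So did fitting the sets as a random effect (limma adjusted p = 0.0710). For probe 2125 the call was lost without arrays 5 and 6 of both groups (log2 fold change 0.70, limma adjusted p = 0.0975).

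AT2G27290 (probe 3557), AT4G22830 (probe 2989) and probe 265 did not pass, with log2 fold changes of -0.26, -0.62 and -0.36. Without normalization between arrays all 3 signs turned, to 0.81, 0.22 and 0.05, and AT2G27290 (probe 3557) passed as higher under blue light (limma adjusted p = 0.00883). Its deposited intensities, 59.9 to 67.6 under blue light and 29.8 to 51.7 under white light, did not overlap. For AT4G22830 (probe 2989) the white-light values fell into 2 ranges, 3.73 and 6.12 on arrays 5 and 6 and 38.4 to 65.6 on arrays 1 to 4, around 15.9 to 37.4 on the blue-light arrays. It fell by 1.06 on the log2 scale once arrays 5 and 6 were left out on both sides (limma adjusted p = 0.000562), and by 0.97 without white-light array 5 alone (limma adjusted p = 0.0346).

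The test of each difference was limma's moderated test on quantile-normalized log2 intensities, fitted over all 2776 probes above 0 on at least 4 arrays of each group, with Benjamini-Hochberg adjustment over them and a threshold of 0.05. All 100 probes were tested. Of them 55 passed, 28 higher and 27 lower under blue light, against 45.3% of all tested probes. The share that rose, 28 of 100, stands beside 19.6% of all tested probes, and the share that fell, 27 of 100, is near the 25.7% of all tested probes. Among the next 100 probes 49 passed, 19 higher and 30 lower. The rule ranked the mean over both lights.

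The sizes were similar on both sides. The 28 that rose had a median log2 fold change of 1.34 (range 0.64 to 2.69), and the 27 that fell one of -1.40 (range -2.60 to -0.65). Over all 100 it was -0.12, beside -0.09 over all tested probes. A change of at least 2-fold either way was seen for 47 of the 100, against 40.1% of all tested probes. Over set means 22 of the 100 passed, 10 higher and 12 lower, against 18.8% of all tested probes (8.21% higher and 10.6% lower). All 22 were also called over the 12 arrays with the same sign. At an adjusted p of 0.01 over the 12 arrays 41 passed, 20 higher and 21 lower, against 29.4% of all tested probes (12.4% higher and 16.9% lower).

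The split between rises and falls held under some scalings and moved under others. With cyclic loess 55 passed, 28 higher and 27 lower, against 45.4% of all tested probes (22.2% higher and 23.2% lower). With a pseudocount 58 passed, 32 higher and 26 lower, against 44.4% of all tested probes (22.6% higher and 21.8% lower). Without normalization between arrays 50 passed, 44 higher and 6 lower, against 42.7% of all tested probes (31.1% higher and 11.5% lower). On that scale the median log2 fold change was 0.81 for the 100 and 0.45 for all tested probes. With median centring 56 passed, 37 higher and 19 lower, against 49.5% of all tested probes (22.7% higher and 26.8% lower). With the sets as a random effect 41 passed, 21 higher and 20 lower, against 23.5% of all tested probes (9.69% higher and 13.8% lower). Of the 55 probes called after quantile normalization 34 were also called without normalization, all with the same sign, namely 28 that rose and 6 that fell. The 28 rises were thus called on both scales. Of the 27 falls, 21 were not called on the deposited scale, and 4 of these had the opposite sign there. On that scale the summed intensities averaged 3078 under blue light and 1983 under white light. With a median of 0.45 over all tested probes it favoured rises, so a kept call there does not weigh rises against falls. The 6 falls called on both were probes 2956, 2401, 2677, 2689, 2637 and 7. Directions below are those of the normalized scale unless stated otherwise.

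**Figure D2:**
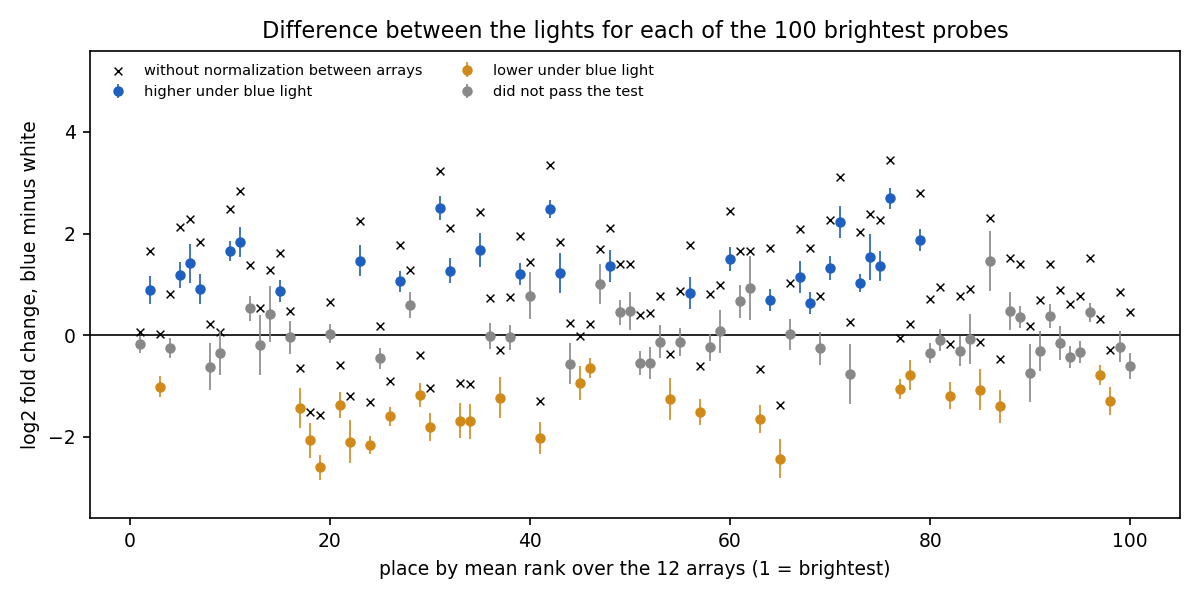
Log2 fold change, blue minus white (vertical axis), of each of the 100 brightest probes against its place by mean rank (horizontal axis); coloured points are the quantile-normalized fit with SE over 12 arrays, and crosses are the same fit without normalization between arrays. Rises reach 2.69 and falls -2.60, and the median of the crosses is 0.81.

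The probes with 1 listed gene are taken first by role. These 21 were singled out for having a gene name, after their values had been seen. Of them 4 rose, 6 fell and 11 did not pass, where of all tested probes 19.6% rose and 25.7% fell.

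Among genes of the photosynthetic apparatus, 4 probes of the table with 1 listed gene matched the antenna, photosystem, electron transport, ATP synthase or RBCS gene families, and 2 of these are among the 100. PSBW (AT2G30570, probe 3529) encodes a small nuclear-encoded subunit of photosystem II, the complex that splits water. Its intensity had a lowest value of 56.5, a median of 66.8 and a highest of 81.7 on the blue-light arrays, against 4.26, 14 and 25 on the white-light arrays. The ranges of the lights did not overlap. PSBW rose by 1.66 ± 0.20 on the log2 scale (SE; limma adjusted p = 4.04e-05, and 0.0175 over set means).

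LHB1B2 (AT2G34420, probe 2665) encodes a chlorophyll-binding protein of the main light-harvesting antenna of photosystem II. Its intensities were 5.52, 7.03 and 8.80 on the blue-light arrays and 2.62, 20.0 and 35.6 on the white-light arrays. White-light arrays 1 to 4 stood at 18.9 to 35.6, while white-light arrays 5 and 6, at 2.62 and 5.13, were below all blue-light arrays on this scale. After normalization the log2 fold change of LHB1B2 was -1.68 ± 0.34 (SE; limma adjusted p = 0.00153, and 0.0459 over set means), and the groups overlapped. On the normalized scale PSBW and LHB1B2 passed in opposite directions. Without normalization between arrays the call of LHB1B2 was lost, at -0.95 on the log2 scale (limma adjusted p = 0.197).

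NdhS (AT4G23890, probe 77) encodes a subunit of the chloroplast NADH dehydrogenase-like complex, which returns electrons to the photosynthetic chain. Its intensities, 6.87, 10.5 and 11.3 under blue light and 1.99, 8.56 and 10.3 under white light, overlapped, and the log2 fold change of NdhS was -0.04 ± 0.24 (SE; limma adjusted p = 0.899). AT1G76450 (probe 2229), which encodes a PsbP-domain protein of the thylakoid lumen, had a log2 fold change of 0.44 ± 0.24 (SE; limma adjusted p = 0.155). AT1G74470 (probe 2360) is listed as geranylgeranyl reductase, the enzyme that makes the side chain of chlorophyll and tocopherol. The enzyme's transcript had a log2 fold change of -0.34 ± 0.21 (SE; limma adjusted p = 0.213). These 3 genes did not pass on the normalized scale. Without normalization between arrays AT1G76450 (1.41, limma adjusted p = 0.0338) and AT1G74470 (0.77, limma adjusted p = 0.0202) passed as higher under blue light. AT1G76450 also passed with median centring (0.86, limma adjusted p = 0.0249).

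Genes of organelle gene expression formed a further group. AT5G65220 (probe 1081), a ribosomal protein of the L29 family, had a log2 fold change of -0.31 ± 0.30 (SE; limma adjusted p = 0.416). AT1G12800 (probe 2472), a protein with an S1 RNA-binding domain, had -0.15 ± 0.34 (SE; limma adjusted p = 0.745). AT3G26630 (probe 2395), annotated in Arabidopsis as a pentatricopeptide repeat protein, a family that acts on organelle RNA, was the member of this group that passed. Its intensities were 6.08, 6.80 and 7.87 under blue light and 3.52, 14.8 and 24.9 under white light. After normalization all white-light arrays of AT3G26630 lay above the blue-light arrays, with a log2 fold change of -1.70 ± 0.35 (SE; limma adjusted p = 0.00171, and 0.0170 over set means). Fitting the sets as a random effect ended this call (limma adjusted p = 0.111), and so did leaving out the normalization between arrays (limma adjusted p = 0.0630). White-light arrays 5 and 6, of 1 set, had 3.52 and 15.4.

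Nuclear genes for mitochondrial proteins were present too. AT4G32060 (probe 2366), a calcium-binding protein of the mitochondrial calcium uptake family, had intensities of 6.74, 8.24 and 9.86 under blue light and 1.21, 1.85 and 1.96 under white light, with no overlap. It rose by 1.37 ± 0.29 on the log2 scale (SE; limma adjusted p = 0.00220, and 0.0640 over set means). AT4G39690 (probe 4112), a homologue of the cristae-organizing protein mitofilin, had a log2 fold change of -1.08 ± 0.41 (SE; limma adjusted p = 0.0436). Its call was lost over set means (limma adjusted p = 0.211), without any single blue-light array and without any single one of white-light arrays 3 to 6, with limma adjusted p-values of 0.0529 to 0.0953.

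CCL (AT3G26740, probe 2653), a transcript under control of the circadian clock, did not pass. Its intensities were 7.28, 11.1 and 12.2 under blue light and 4.35, 11.3 and 15.2 under white light, and the log2 fold change of CCL was -0.46 ± 0.20 (SE; limma adjusted p = 0.0811, and 0.00552 under cyclic loess).

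Of the other genes listed alone, AT4G17070 (probe 577) and AT2G46220 (probe 185) rose and are described with the largest rises. AT5G38360 (probe 2721), AT3G26580 (probe 2383) and AT3G09080 (probe 893) fell. AT5G38360 had a log2 fold change of -1.60 ± 0.18 (SE; limma adjusted p = 2.91e-05, and 0.0177 over set means), and AT3G26580 of -1.06 ± 0.19 (SE; limma adjusted p = 0.000641, and 0.0610 over set means). The log2 fold change of AT3G09080, -0.79 (limma adjusted p = 0.0396), no longer passed over set means (limma adjusted p = 0.230) or without any single array other than blue-light array 3 and white-light arrays 5 and 6, with limma adjusted p-values of 0.0609 to 0.0837. Without normalization between arrays AT3G09080 had 0.22, the opposite sign, and AT5G38360 (-0.90, limma adjusted p = 0.0553) and AT3G26580 (-0.06, limma adjusted p = 0.847) did not pass. AT4G31530, AT5G50350 and AT1G51350, with log2 fold changes of 0.52, 0.07 and 0.48, did not pass. AT4G31530 (probe 3215) passed without white-light array 3 (0.65, limma adjusted p = 0.0410), without normalization between arrays (1.38, limma adjusted p = 0.0162) and with median centring (0.83, limma adjusted p = 0.0326). AT1G51350 (probe 1528) passed without normalization between arrays (1.51, limma adjusted p = 0.0494), and AT5G50350 (probe 1657) passed as lower without arrays 5 and 6 of both groups (-0.69, limma adjusted p = 0.0372).

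The largest rises came from all levels of the 100. Probe 4336, without a listed gene, had intensities of 9.93, 15.3 and 19.5 on the blue-light arrays, against 0.595, 1.77 and 2.05 on the white-light arrays. The groups were far apart, and probe 4336 rose by 2.69 ± 0.21 on the log2 scale (SE; limma adjusted p = 2.25e-06, and 0.00590 over set means). Probe 4360, with several genes listed, had 29.5, 31.3 and 43.5 under blue light and 2.24, 2.68 and 7.61 under white light, a log2 fold change of 2.50 ± 0.23 (SE; limma adjusted p = 5.97e-06, and 0.00913 over set means).

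AT4G17070 (probe 577) had intensities of 18.9, 28.0 and 29.5 under blue light and 1.29, 2.82 and 4.0 under white light. Its rise of 2.48 ± 0.18 on the log2 scale (SE; limma adjusted p = 2.19e-06, and 0.00621 over set means) had a small spread on both sides, with normalized SDs of 0.22 and 0.17 in blue and white light. AT2G46220 (probe 185) had 6.47, 13.2 and 21.9 under blue light and 0.550, 2.49 and 2.84 under white light, a log2 fold change of 2.23 ± 0.32 (SE; limma adjusted p = 0.000137, and 0.0170 over set means). Probes 2873, 1431 and 733 followed, at 1.87, 1.83 and 1.68 on the log2 scale, and set means gave them limma adjusted p-values of 0.0164, 0.0254 and 0.0170. With the sets as a random effect the call of probe 733 was lost (limma adjusted p = 0.0929). All 8 of the largest rises, PSBW included, kept blue-light and white-light arrays apart after normalization.

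The largest falls lay between places 18 and 65. Probe 2956, with several genes listed, had intensities of 6.13, 7.71 and 12.2 on the blue-light arrays and 9.44, 25.8 and 56.6 on the white-light arrays. Its white-light values on arrays 5 and 6 were 12.4 and 9.44, so the groups overlapped on the deposited scale and not after normalization. Probe 2956 had a log2 fold change of -2.60 ± 0.25 (SE; limma adjusted p = 7.88e-06, and 0.00838 over set means). Probe 2401 had 2.95, 3.36 and 3.47 under blue light and 6.84, 8.76 and 9.98 under white light, apart on either scale, and a log2 fold change of -2.43 ± 0.38 (SE; limma adjusted p = 0.000251, and 0.0217 over set means).

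Probe 2677 had intensities of 5.94, 7.40 and 8.88 under blue light and 7.59, 22.3 and 39.0 under white light, with a log2 fold change of -2.16 ± 0.17 (SE; limma adjusted p = 2.60e-06, and 0.00844 over set means). Probes 4171, 2689, 2516 and 2709 had log2 fold changes of -2.10, -2.08, -2.03 and -1.80, and set means gave limma adjusted p-values of 0.0447, 0.0270, 0.0233 and 0.0179. On the deposited scale these 7 falls were smaller, from -1.57 for probe 2956 to -1.04 for probe 2709 on the log2 scale, and 3 of them did not pass there, probes 4171, 2516 and 2709 (limma adjusted p = 0.135, 0.0620 and 0.0746).

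**Figure D3:**
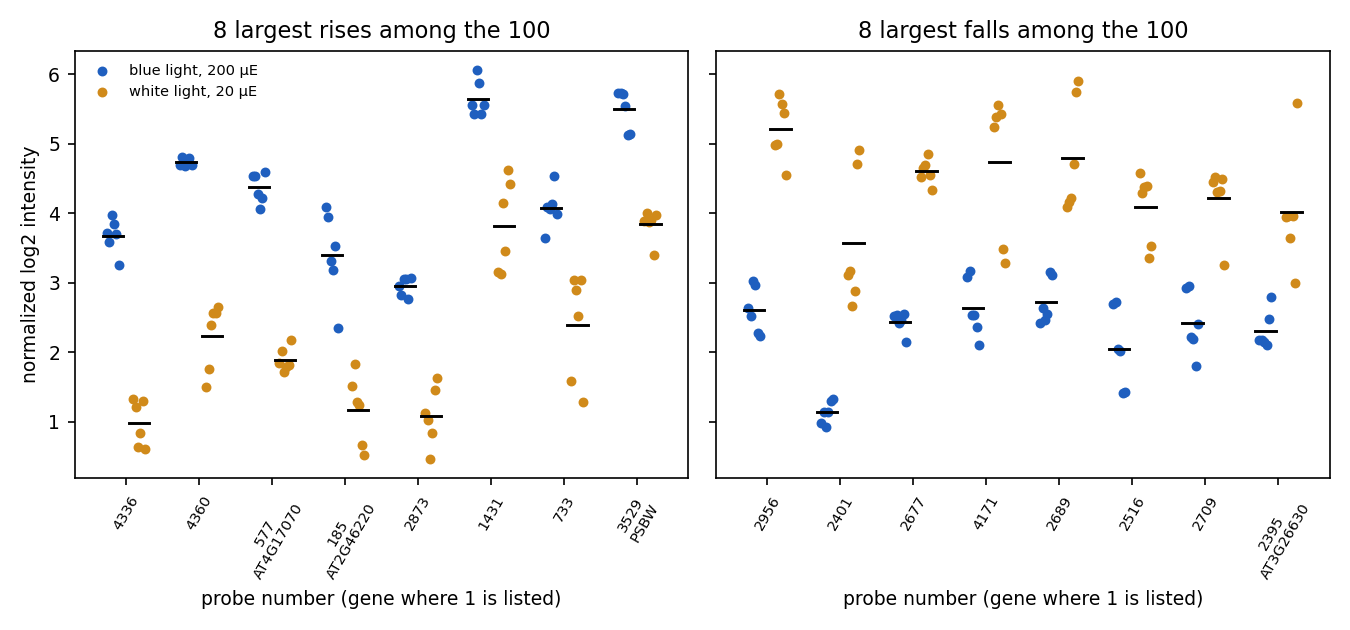
Normalized log2 intensity (vertical axis) on each array for the 8 largest rises (left) and the 8 largest falls (right) among the 100 probes; each probe shows arrays 1 to 6 from left to right, blue light left of white light, and bars are means of 6 arrays. The log2 fold changes run from 2.69 (probe 4336) to 1.66 (PSBW) on the left and from -2.60 (probe 2956) to -1.70 (AT3G26630) on the right.

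The order of the 100 probes was less alike between the lights than between sets of either light, with the smaller gap to the white-light sets. Placed from 1 to 100 by their mean rank in each group, their order correlated at Spearman's rho = 0.454 between blue light and white light (over 100 probes). Within a single set of arrays, blue against white, rho was 0.476 for arrays 1 and 2, 0.548 for arrays 3 and 4 and 0.408 for arrays 5 and 6. Each set of blue-light arrays correlated with the mean of the other blue-light sets at 0.885 to 0.951. Each set of white-light arrays correlated with the mean of the other white-light sets at 0.582 to 0.730. On a like footing, single arrays of different groups correlated over the 100 probes at 0.292 to 0.555. Single arrays of different sets correlated at 0.559 to 0.822 under white light and at 0.839 to 0.942 under blue light. These correlations are over probes chosen for a high mean over both lights, which lowers them between groups, and they are descriptions of these arrays. Over all 3439 probes single arrays of different groups correlated at rho = 0.650 to 0.765. There, single arrays of different sets correlated at 0.730 to 0.838 under white light and at 0.894 to 0.965 under blue light.

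The white-light arrays were the more variable of the groups for these probes. The median SD of a probe over the 6 arrays, on the normalized log2 scale, was 0.26 under blue light and 0.58 under white light. Between the arrays of a set the pooled SD was 0.14 under blue light and 0.29 under white light. The median SD left by the fit over both groups was 0.48 for the 100 probes. It was 0.25 without arrays 5 and 6 of both groups, 0.45 without arrays 1 and 2 and 0.49 without arrays 3 and 4. Over all tested probes it was 0.57, and 0.38 without arrays 5 and 6. For all 2378 probes above 0 on every array the median SD was 0.33 under blue light and 0.64 under white light.

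Between the lights 74 of the 100 probes moved by at least 10 places, 42 by at least 25, and the median move was 21 places. Probe 4336 climbed most, to place 22 under blue light, against place 99 under white light. Probe 1597 stood at place 31 under blue light and at place 100 under white light, although its log2 fold change of 1.46 ± 0.59 did not pass (SE; limma adjusted p = 0.0607). Its white-light intensities were 0.268 and 0.334 on arrays 6 and 5 and 5.01 to 8.65 on the other white-light arrays. Without any single one of white-light arrays 1 to 3 probe 1597 passed, with limma adjusted p-values of 0.0352 to 0.0445. AT2G46220 (probe 185) and probe 2873 each climbed 65 places, and probe 749 climbed 58. For probe 749 the log2 fold change was 1.55 (limma adjusted p = 0.0137, and 0.114 over set means), and without arrays 1 and 2 of both groups it was 1.05 (limma adjusted p = 0.214).

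The largest drop was that of probe 2401, which stood at place 95 under blue light and at place 31 under white light. Probes 2516, 7, 2637 and 3157 dropped by 53, 51, 48 and 47 places. Probes 7 and 2637 had narrow ranges, 3.13 to 4.30 and 3.40 to 4.17 under blue light against 5.25 to 6.46 and 5.07 to 6.53 under white light. All 5 of these drops passed over the 12 arrays, and over set means probe 3157 did not (limma adjusted p = 0.0742), nor without arrays 1 and 2 of both groups (limma adjusted p = 0.0502) or without normalization between arrays (limma adjusted p = 0.532).

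**Figure D4:**
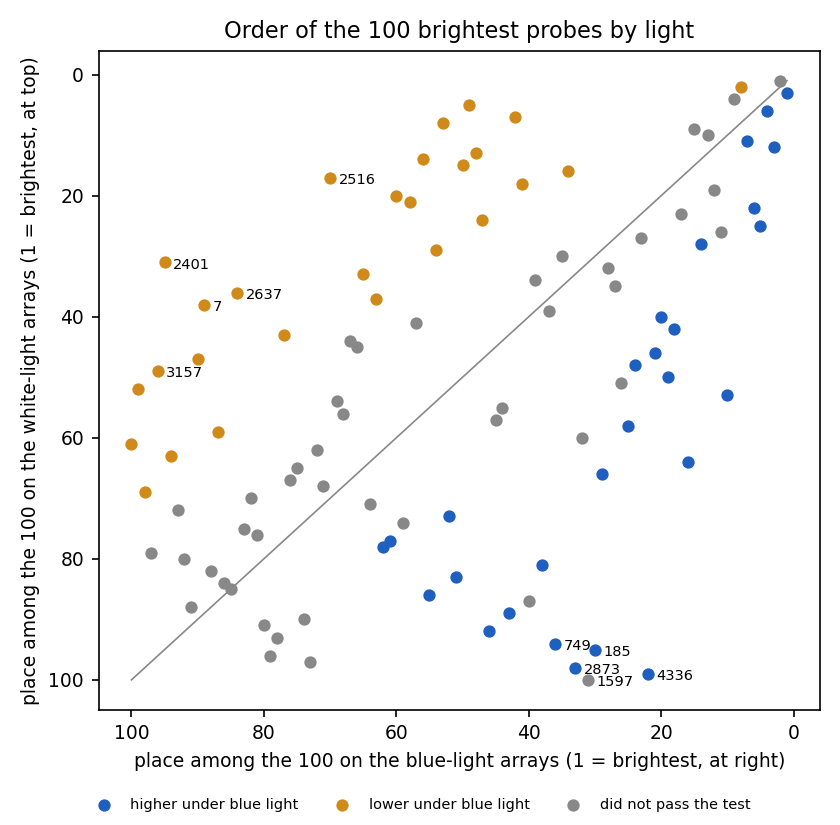
Place of each of the 100 probes by mean rank on the blue-light arrays (horizontal axis, 1 at right) and on the white-light arrays (vertical axis, 1 at top); the line marks equal places and the numbers name the 5 largest climbs and 5 largest drops under blue light. The places correlate at rho = 0.454, and probe 4336 moves by 77 places.

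The top of the order was shared in part. By mean rank in each group, 5 of the 10 brightest probes under blue light were also among the 10 brightest under white light, as were 10 of the 20 brightest and 30 of the 50 brightest. All of the 10 and 20 brightest of either light are among the 100. Of the 100 brightest probes of a single light, 66 were shared between the lights. On single arrays, 42 of the 100 probes chosen over both lights were in the top 100 of all 12 arrays, 70 in that of all 6 blue-light arrays and 48 in that of all 6 white-light arrays. Probes 4187, 4336 and 2873 were in the top 100 of all 6 blue-light arrays and of no white-light array. Probes 2637, 7, 2401 and 2383 (AT3G26580) showed the reverse. These 7 were singled out after their values were seen.

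Some probes bright under a single light were not among the 100. Among the 100 brightest under blue light 20 were not chosen, and among those under white light 16. Probe 2150, with several genes listed, stood at place 31 under blue light and at place 684 under white light, with median intensities of 10.02 and 0.256. Probe 2768 stood at places 57 and 878. On the white-light side probe 4466 stood at place 321 under blue light and at place 60 under white light, with medians of 1.48 and 5.56. These probes differ by choice, and no test is given.

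At the other end, the 5 probes with the smallest spread over the 12 arrays were 3499, 3773, 3557 (AT2G27290), 3262 and 3553. Their normalized log2 SD over 12 arrays was 0.17, 0.20, 0.28, 0.29 and 0.30, against a median of 0.75 over the 100. Probe 3499 was at 100 on 6 of the 12 arrays, which limits the spread it could show. Probe 3773 had intensities of 10.4, 12.3 and 15.9 under blue light and 3.35, 9.80 and 13.9 under white light, and a log2 fold change of 0.03 ± 0.19 (SE; limma adjusted p = 0.922).

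On the normalized scale 41 of the 100 probes did not overlap between the lights, 21 with every blue-light array above every white-light array and 20 with every blue-light array below. Over all 2378 probes above 0 on every array the share was 28.1%, with 12.8% above and 15.3% below. On the deposited scale 36 of the 100 lay wholly above and 5 wholly below under blue light, against 23.9% and 4.5% of the 2378 probes.

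The bright probes were unevenly placed along the probe numbers, which the rule did not use except to break ties. Divided by 6, the probe numbers of 32 of the 100 left a remainder of 1, which is 5.40% of the 593 probes of that class. Of the classes with remainders 2 to 5, from 2.29% to 3.06% of the probes were among the 100, and of the 261 probes with remainder 0 only 0.383%. Only 22 of those 261 were above 0 on enough arrays to be tested, against 503 to 584 in the other classes. Few of that class could therefore be bright, and its share says little about where bright probes lie. The next 100 probes had 24 with remainder 1. Pairs of the 100 whose numbers differ by 12 numbered 10, more than at any other difference from 1 to 36, where there were 0 to 7. Among the next 100 probes 1 pair differed by 12. The sources used here do not say what the numbers stand for on the array, and the part of position in these counts was not tested.

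Neighbours spaced by 12 are given with their log2 fold changes. Probes 2653 (CCL), 2665 (LHB1B2), 2677 and 2689 had log2 fold changes of -0.46, -1.68, -2.16 and -2.08, of which the first did not pass. Probes 2709 and 2721 (AT5G38360) had -1.80 and -1.60, and probes 2383 (AT3G26580) and 2395 (AT3G26630) had -1.06 and -1.70. In contrast, probes 4336, 4348 and 4360 had 2.69, 1.36 and 2.50. Probes 2869 and 2881 had opposite signs, 1.19 and -1.44, and so did 3454 and 3466, with 0.64 and -0.65, and 1757 and 1769, with -1.26 and 0.36, the last of which did not pass. Over set means the calls of probes 4348, 2881, 3454, 3466 and 1757 were lost (limma adjusted p = 0.0677, 0.104, 0.240, 0.205 and 0.154), and under the replicate block that of probe 3454 (limma adjusted p = 0.0562). Between numbers 2501 and 3000, 4 of 18 bright probes rose and 9 fell, where of all 317 tested probes 67 rose and 88 fell. Between numbers 501 and 1000, 7 of 11 rose and 1 fell, where of all 311 tested probes 63 rose and 72 fell. These ranges were singled out for uneven counts among ranges of equal width. For the other ranges, rises and falls of the bright probes are set against those of all tested probes. From 1 to 500 they were 2 and 3 of 9, against 49 and 75 of 288. From 1001 to 1500 they were 2 and 0 of 5, against 73 and 56 of 311. From 1501 to 2000 they were 0 and 2 of 9, against 58 and 70 of 291. From 2001 to 2500 they were 4 and 5 of 16, against 49 and 73 of 274. From 3001 to 3500 they were 2 and 3 of 11, against 67 and 79 of 315. From 3501 to 4000 they were 1 and 1 of 8, against 39 and 88 of 293. From 4001 to 4500 they were 6 and 2 of 12, against 66 and 86 of 309. From 4501 to 5000 they were 0 and 1 of 1, against 13 and 26 of 67. Whether direction depends on probe number was not tested.

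**Figure D5:**
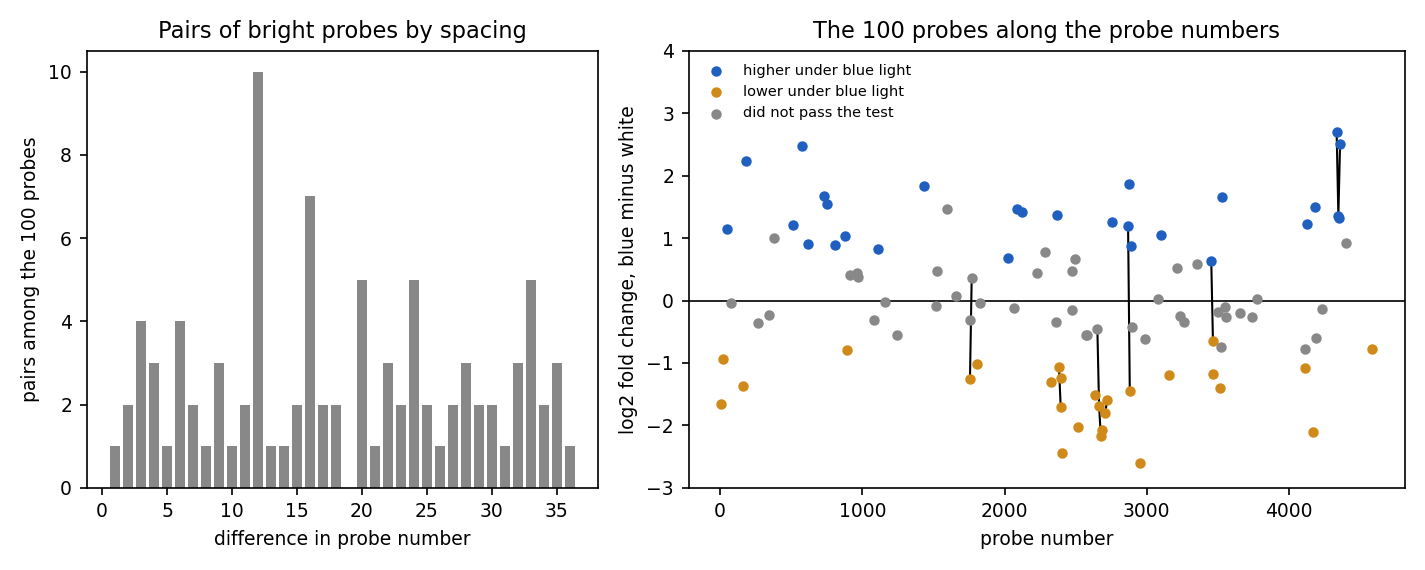
Left, number of pairs among the 100 probes (vertical axis) at each difference in probe number from 1 to 36; right, log2 fold change, blue minus white, of each of the 100 probes against its probe number, with lines joining runs spaced by 12. The highest bar is 10 pairs, at a difference of 12.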

How the data were processed

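Per the deposited table, the authors' values were 1 relative spot intensity per probe and array, linear, never below 0 and ending at 100. The sources used here do not give array type, labelling, background correction or scaling. Genes came from the platform annotation, with symbols updated through RefSeq's gene table (690 of 692 probes with 1 gene matched). Zeros were treated as missing, values taken to log2 without a pseudocount and quantile normalized, which at this brightness largely follows rank. limma 3.58.1 (R 4.3.3) fitted blue minus white over 12 arrays without covariates, two-sided; the script was tested on simulated data. The number of arrays limits precision. The labels state no pairing of the arrays. Deviations of arrays with the same number correlated between groups at 0.192 to 0.370 over 6 pairs, against -0.231 to 0.225 for other pairs. These ranges overlap, so whether the numbers pair the arrays is not settled, and the main fit used no pairing.

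The 100 probes, tests and sets were chosen with earlier results of these data known. Named probes were the first 10 places, the 8 largest rises and falls that passed, spots at 100, the 3 probes on each side of the limit, the 5 largest climbs and drops, the 5 smallest SDs and up to 5 unchosen probes bright under each light. Alternatives covered scaling, zeros, filters, sets, the replicate block, the prior, the threshold and arrays left out. No sequences were used here.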

Additional observations from a re-analysis of the deposited data

Results flagged for a closer look

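Among 124 groups of 6 values examined for an array far from the others, 5 held such a value, where chance gives about 1 in 20. On the normalized log2 scale probe 1803 had 5.75 on white-light array 6, against 6.33 to 6.60 on the other white-light arrays. PSBW (probe 3529) had 3.40 on white-light array 5, against 3.88 to 4.01 on the others. Probe 2709 had 3.25 on white-light array 6, against 4.30 to 4.52. AT3G26630 (probe 2395) had 5.59 on white-light array 6, the highest, against 3.0 to 3.96. Probe 2677 had 2.14 on blue-light array 6, against 2.42 to 2.55. Of these 5 values, 4 were on white-light arrays 5 and 6, which had the lowest summed intensities, and the part of that in the values was not tested.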

How the results depend on the processing

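Of 12 single arrays left out in turn, each gave 50 to 55 of the 100 probes past the threshold. Of these, 26 to 29 were higher and 24 to 27 lower under blue light. Of all tested probes 39.6% to 46.3% then passed, 16.7% to 20.2% higher and 22.9% to 26.1% lower. The share of signal, blue minus white, then ran from -0.727 to 0.00694 percentage points, the order correlation from 0.432 to 0.465, and the top 100 of both groups shared 64 to 67 probes. Set means left 22 past the threshold (10 higher, 12 lower), against 18.8% of all tested probes. Set means with the replicate block, added after seeing the data, left 28 (14 and 14), against 24.4% of all tested probes. The replicate block over 12 arrays gave 56 (29 and 27), against 49.4% of all tested probes. It kept 53 of the 55 calls, losing those of probes 1111 and 3454 (limma adjusted p = 0.0819 and 0.0562), and added 3. No normalization gave 44 higher and 6 lower, against 31.1% and 11.5% of all tested probes. Without arrays 1 and 2, 3 and 4, or 5 and 6 of both groups, 39, 47 and 61 passed, against 29.7%, 33.9% and 50.9% of all tested probes. Taking the 100 probes by mean intensity moved the difference in share to 1.47 percentage points, and by median rank to 0.766. Without the probes at 100 on any array it was 0.396. All 3 had the opposite sign to the difference over the 100 probes. The cause of these shifts was not tested.

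The sign turned for the following probes. Without normalization the log2 fold changes were 0.060 (probe 3499), 0.013 (1803), 0.81 (3557), 0.22 (2989), 0.054 (265), 0.17 (2653), 0.76 (77), 0.22 (893), 0.71 (3262), 0.95 (3553), 0.77 (1081), 0.88 (2472) and 0.77 (2360). On that scale probes 3557, 3553 and 2360 passed as higher under blue light (limma adjusted p = 0.00883, 0.0160 and 0.0202). Median centring gave 0.26 (3557), 0.21 (77), 0.15 (3262), 0.40 (3553), 0.22 (1081), 0.33 (2472) and 0.21 (2360). Cyclic loess gave 0.061 (3557) and -0.27 (3773), and the pseudocount 0.0061 (77). Without arrays 1 and 2 of both groups probe 77 had 0.11 and probe 1081 had 0.15. Without arrays 3 and 4 probe 3773 had -0.053 and probe 2472 had 0.16. Without arrays 5 and 6 probe 265 had 0.30, probe 3773 had -0.14, probe 1528 had -0.21 and probe 1657 had -0.69, which passed (limma adjusted p = 0.0372). With 1 array left out, probe 3773 ranged from -0.037 to 0.091, probe 77 from -0.17 to 0.076, probe 1657 from -0.19 to 0.31 and probe 2472 from -0.36 to 0.024. None of the 100 probes was at 0 on any array, and values at 100 may be an upper limit.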
